A study of Mus musculus with 12 samples.

Results

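The integrins and adhesion receptors by which T cells leave the blood and hold on to other cells were followed at the RNA level in splenic CD4+ T cells of mice with ligature-induced periodontitis (LIP). The 10 genes, of 55414 gene records in the count table, were Itgal, Itgb2, Itga4, Itgb1, Itgb7, Itgae, Itgav, Itga6, Cd44 and Selplg. They were chosen by name for their function, with earlier results of these data known, found by symbol and read by Ensembl identifier, and all 10 passed the filter on low counts in every comparison. All mice were WT BALB/c mice of 18 weeks in the labels, and per the methods of the study they were males. In the LIP group a silk ligature had been tied around the upper second molars, whereas the CTL group received no ligature. Cells of day 0 were not cultured. Cells of day 2 had been in culture and were stimulated through the T-cell receptor and its costimulator by antibodies to TCRβ and CD28 (1 µg/mL each in the labels) in the presence of 10 ng/mL IL-2, also per the labels. The methods of the study give other concentrations of the TCRβ antibody and of IL-2. There were thus 4 groups of 3 libraries each, which are named here by the number in their labels.

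Integrins are paired receptors of an α and a β chain that sit on the cell surface in a bent, inactive form until signals from inside the cell extend them. LFA-1 (αLβ2, from Itgal and Itgb2) binds ICAM molecules on antigen-presenting cells and endothelium, and the α4 chain (Itga4) pairs with β1 (Itgb1) into VLA-4, the receptor of VCAM-1, or with β7 (Itgb7) into the gut-homing receptor of MAdCAM-1. The αE chain (Itgae, CD103) pairs with β7 and binds E-cadherin of epithelium, α6 (Itga6) with β1 or β4 binds laminin, and αv (Itgav) pairs with several β chains to bind vitronectin and to release active TGF-β. CD44 binds hyaluronan and is raised on antigen-experienced T cells, and PSGL-1, the product of Selplg, is the ligand of the selectins on which T cells roll.

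The libraries held between 6249018 and 12866718 counts, so that 3 counts, the limit that a count of 0 allows, stood for 0.268 to 0.451 CPM, the normalised read count scaled to a common library size, counting error only. CPM are given after TMM normalization over the 12 libraries. Cd4 lay between 421 and 643 CPM and Cd8a at or below 2.24 CPM, so the defining marker of the labelled cell type was present throughout. Cd8b1, the other CD8 gene, lay between 3.29 and 6.25 CPM, apart from 10.9 and 8.80 CPM in LIP 96 and LIP 97 of day 2. The numbers 88, 89 and 94 named the CTL libraries of day 0, 92, 93 and 94 those of LIP, 92, 93 and 97 the CTL libraries of day 2, and 90, 96 and 97 those of LIP. LIP 90 stood apart within its group: over all genes its counts differed from those of LIP 96 and LIP 97 by a chi-square of 48.4 and 38.6 per gene, against 11.9 between these 2 and at most 13.1 within any other group. CTL 89 had the lowest summed level of 10 memory and effector genes on day 0, with 177 CPM against 277 and 325 in CTL 88 and CTL 94 and 322 to 409.6 in the LIP group. The protocol names anti-CD28 alone, but the treatment labels give anti-CD29 to a pair of day 2 libraries (CTL 93, LIP 96) and anti-CD30 to another (CTL 97, LIP 97), leaving anti-CD28 to CTL 92 with LIP 90. CD29 is the β1 chain itself, which Itgb1 encodes. The labels do not say that the libraries of a group came from separate mice, so the p-values measure the spread between these libraries.

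Between day 0 and day 2, 8 of the 10 genes changed in CTL mice (3 rose, 5 fell) and 9 in LIP mice (2 rose, 7 fell), with an adjusted p under 0.05 in edgeR's quasi-likelihood test. Change was the rule among all genes: in CTL mice 69% of those tested were called (35.3% higher, 33.7% lower), and in LIP mice 71.8% (36.6% higher, 35.2% lower). The number of members called was thus near the background. The days did not overlap for 7 of the 10 genes in CTL mice and for 9 in LIP mice, beside 73.3% and 74.8% of all genes. Between LIP and CTL, 0 of the 10 genes were called on day 0, when 0.427% of all genes were, and 0 on day 2, when 0% (0 of 14041) were. Without adjustment, edgeR gave a p under 0.05 for 2322 genes on day 2, and DESeq2 called 489 after adjustment. The median log2 fold change of the 10 genes from day 0 to day 2 was -0.51 in CTL mice and -0.73 in LIP mice, beside -0.02 and -0.0028 over all genes tested.

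**Figure D1:**
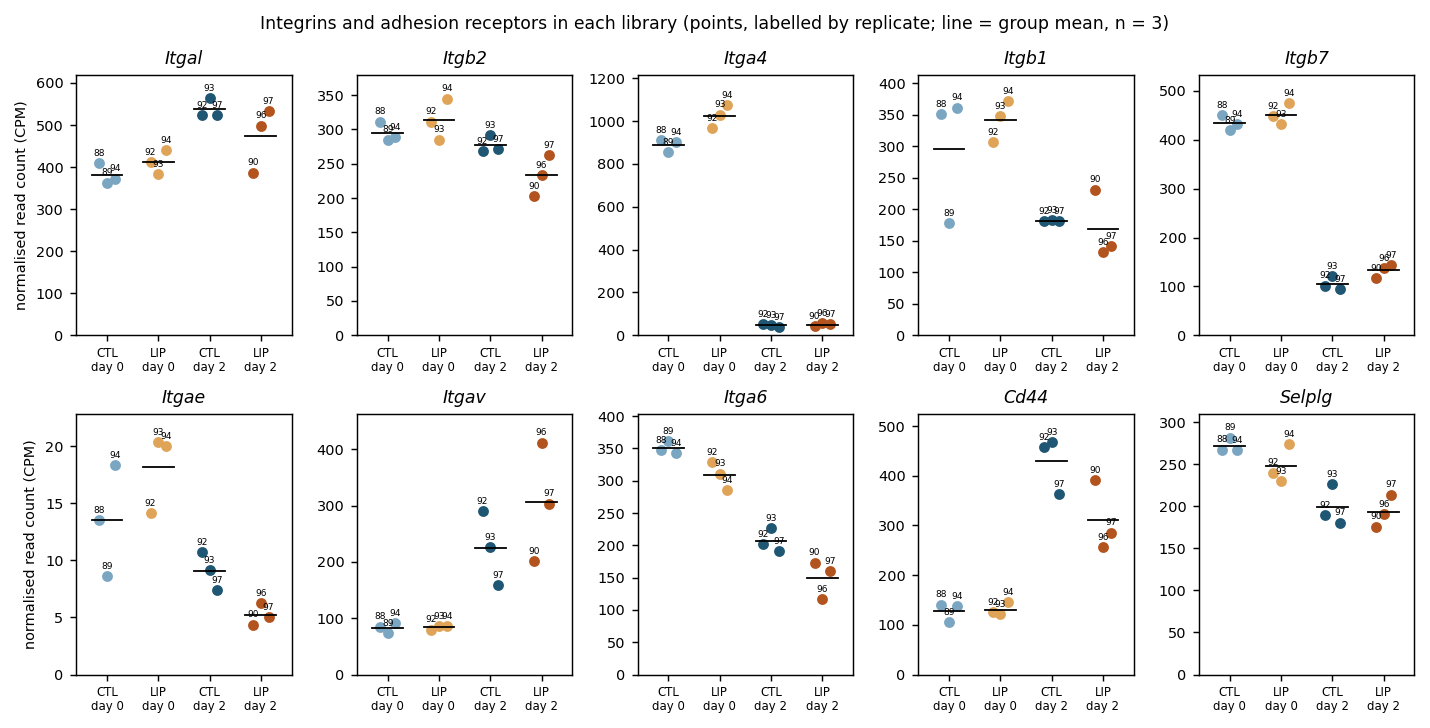
Normalised read counts (CPM, y axes from 0) of the 10 genes in each of the 12 libraries, which are labelled by number and grouped on the x axes. Lines mark the group means (n = 3). Itga4 and Itgb7 lie far lower on day 2 in every library and Cd44 and Itgav higher, while CTL 89 lies low for Itgb1 on day 0 and LIP 90 lies above LIP 96 and LIP 97 for Itgb1 and Cd44 on day 2.

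The largest change belonged to Itga4 (ENSMUSG00000027009, GRCm39, chr2:79085660-79163467, plus strand, 28 exons in the canonical transcript). On day 0 it was counted at 910.2, 853 and 902 CPM in CTL 88, CTL 89 and CTL 94 and at 968, 1030.3 and 1075 CPM in LIP 92, LIP 93 and LIP 94. On day 2 it was counted at 51.6, 47.0 and 38.7 CPM in CTL 92, CTL 93 and CTL 97 and at 41.2, 57.6 and 50.7 CPM in LIP 90, LIP 96 and LIP 97. The days were far apart in both groups, and no library of day 2 exceeded 57.6 CPM. Itga4 fell by 4.28 on the log2 scale in the CTL group (SE 0.14, 19.4-fold lower, adjusted p 1.7e-10, n = 3 against 3, edgeR) and fell by 4.36 in the LIP group (SE 0.14, 20.6-fold lower, adjusted p 1.3e-10, edgeR). The difference between these falls was -0.08 (95% interval -0.47 to 0.31). On day 0 the LIP libraries all lay above the CTL libraries, with a log2 fold change of 0.21 (SE 0.07), which was not called after adjustment over all genes (adjusted p 0.242, edgeR). Groups that did not overlap were found for 19.1% of all genes in this comparison.

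Both β partners of α4 fell with stimulation, but less. Itgb7 (ENSMUSG00000001281, chr15:102124429-102140379, minus strand) was counted at 449.8, 419 and 431 CPM in the CTL libraries and at 448, 432 and 475 CPM in the LIP libraries of day 0, and at 101, 121 and 94.8 CPM and 117, 137 and 144 CPM, respectively, on day 2. The 6 values of day 0 lay in a narrow band well above those of day 2. Itgb7 fell by 2.04 in the CTL group (SE 0.11, adjusted p 4.3e-09, edgeR) and fell by 1.77 in the LIP group (SE 0.11, adjusted p 1.2e-08, edgeR), that is 4.10-fold and 3.41-fold. LIP and CTL overlapped on both days, and the log2 fold change of LIP over CTL on day 2 was 0.32 (95% interval -0.0037 to 0.64, adjusted p 0.307, edgeR).

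Itgb1 (ENSMUSG00000025809, chr8:129411876-129460618, plus strand) encodes the β chain shared by VLA-4, the laminin receptor and others. On day 0 the CTL libraries held 351, 177 and 361 CPM and the LIP libraries 307, 348 and 371 CPM. CTL 89 thus lay at about the level of stimulated cells, while the other 5 libraries lay between 307 and 371 CPM. On day 2 the CTL libraries lay between 181 and 183 CPM, and the LIP libraries held 231 (LIP 90), 132 (LIP 96) and 142 CPM (LIP 97). The level fell by 0.71 in the CTL group (SE 0.24, adjusted p 0.018, edgeR) and fell by 1.02 in the LIP group (SE 0.24, adjusted p 0.0018, edgeR). With CTL 89 left out the fall in the CTL group was 0.97 (adjusted p 0.0007), whereas without CTL 88 or CTL 94 the adjusted p was 0.0876 and 0.101. CTL 89 was also the library with the lowest memory and effector sum, and their part in its Itgb1 value was not tested. In bulk RNA, fewer cells of a type and less RNA per cell cannot be told apart. CTL 93 and LIP 96, the libraries labelled with an antibody to CD29, held 183 and 132 CPM and were not set off together from the rest.

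A pair of genes rose in both groups. Cd44 (ENSMUSG00000005087, chr2:102641486-102732010, minus strand) was counted at 141, 106 and 137 CPM in the CTL libraries and at 126, 121 and 145 CPM in the LIP libraries of day 0, and at 457, 468 and 364 CPM and 391, 257 and 286 CPM, respectively, on day 2. All libraries of day 2 lay above all of day 0. Cd44 rose 3.36-fold in the CTL group (log2 fold change 1.75, SE 0.17, adjusted p 6.7e-07, edgeR) and 2.38-fold in the LIP group (1.25, SE 0.16, adjusted p 1.3e-05, edgeR). The difference of the log2 changes was -0.50 (95% interval -0.99 to -0.01), which was not called (adjusted p 0.308, edgeR). In that test of the difference 0.0517% of all genes and 0 of the 10 members were called.

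Itgav (ENSMUSG00000027087, chr2:83554403-83637260, plus strand) was low and even on day 0, with 85.2, 73.4 and 91.1 CPM in the CTL libraries and 79.9, 86.0 and 86.1 CPM in the LIP libraries. On day 2 it was counted at 290.3, 226 and 159 CPM in CTL 92, CTL 93 and CTL 97 and at 201, 412 and 303 CPM in LIP 90, LIP 96 and LIP 97. Each group spread widely on day 2 and the groups overlapped. Itgav rose 2.71-fold in the CTL group (log2 fold change 1.44, SE 0.24, adjusted p 0.0001, edgeR) and 3.63-fold in the LIP group (1.86, SE 0.24, adjusted p 1.0e-05, edgeR). Of the β chains that pair with αv besides β1, Itgb3 lay between 90.3 and 116 CPM in the libraries of day 0 and between 52.4 and 122 CPM on day 2, and Itgb8, of the TGF-β-releasing receptor αvβ8, rose 4.85-fold in the CTL group and 2.77-fold in the LIP group. Itgb3 is also a platelet gene. Of the other platelet genes listed, Itga2b lay between 0.422 and 3.09 CPM and Pf4, Ppbp, Gp9, Gp1bb and Gp6 at or below 0.752 CPM in every library, and the part of platelets in the level of Itgb3 was not tested.

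The 250 bases upstream of the start site of the canonical transcript are shown for Itga4 and Itgb7, which fell and encode the partners of the gut-homing receptor, and for Itgav and Cd44, which rose most in both groups. They were read from GRCm39 at chr2:79085410-79085659 (Itga4, plus strand), chr15:102140380-102140629 (Itgb7, minus strand), chr2:83554153-83554402 (Itgav, plus strand) and chr2:102732011-102732260 (Cd44, minus strand), 5′ to 3′ on the strand of the gene. Capitals mark the letters CACCC or the reverse complement, the core bound by KLF factors.
Itga4: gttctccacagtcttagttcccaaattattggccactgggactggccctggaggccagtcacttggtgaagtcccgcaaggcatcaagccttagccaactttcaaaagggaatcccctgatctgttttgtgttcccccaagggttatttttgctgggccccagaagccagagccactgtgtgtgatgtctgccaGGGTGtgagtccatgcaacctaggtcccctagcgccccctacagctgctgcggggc
Itgb7: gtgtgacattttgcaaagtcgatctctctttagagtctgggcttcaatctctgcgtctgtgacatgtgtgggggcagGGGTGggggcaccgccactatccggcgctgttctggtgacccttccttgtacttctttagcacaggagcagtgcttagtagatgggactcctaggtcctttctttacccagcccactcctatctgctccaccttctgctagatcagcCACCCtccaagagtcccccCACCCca
Itgav: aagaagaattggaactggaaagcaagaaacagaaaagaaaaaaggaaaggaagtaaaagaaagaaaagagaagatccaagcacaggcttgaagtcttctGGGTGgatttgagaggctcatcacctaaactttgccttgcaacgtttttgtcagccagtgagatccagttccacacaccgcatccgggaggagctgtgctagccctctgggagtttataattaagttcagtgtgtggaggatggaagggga
Cd44: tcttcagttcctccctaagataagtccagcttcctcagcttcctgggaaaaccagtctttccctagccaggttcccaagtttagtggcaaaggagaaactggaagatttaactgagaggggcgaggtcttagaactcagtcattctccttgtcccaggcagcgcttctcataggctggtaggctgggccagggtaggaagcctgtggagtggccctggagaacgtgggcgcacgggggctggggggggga
The core was found 1 time in the window of Itga4, 3 times in that of Itgb7, 1 time in that of Itgav and not in that of Cd44. Over all protein-coding genes, 52.9% of 21770 such windows held it on either strand, as did 6 of those of the 10 genes. The other letters searched on both strands, CCGGAA (ETS, 12.4% of all windows), TGTGGT (RUNX, 13%), TGACTCA (AP-1, 4.02%), GGGCGG (GC box, 36.3%) and CACGTG (E-box, 6.26%), were in none of the 4 windows shown. A match of letters is a description of the window and not a binding site.

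The chains of LFA-1 moved little. Itgal (ENSMUSG00000030830, chr7:126895432-126934320, plus strand) was counted at 409.8, 363 and 373 CPM in the CTL libraries and at 412, 382 and 440.2 CPM in the LIP libraries of day 0. On day 2 it was counted at 523, 564 and 524 CPM in the CTL libraries and at 387, 498 and 534 CPM in LIP 90, LIP 96 and LIP 97. The CTL libraries of day 2 lay above all libraries of day 0, whereas LIP 90 did not. The CTL group gained 0.49 on the log2 scale (SE 0.12, 1.41-fold, adjusted p 0.0019, edgeR), and the LIP group had a log2 fold change of 0.20 (95% interval -0.05 to 0.45, adjusted p 0.137, edgeR). Without LIP 90 the value in the LIP group was 0.33 and was called (adjusted p 0.0053, edgeR). Normalization also bore on Itgal, as upper-quartile factors gave 0.21 in the CTL group (adjusted p 0.152) and -0.11 in the LIP group, and library totals alone gave -0.16 in the LIP group. These scalings shifted the median of all genes by -0.31 and -0.32 (upper quartile) and by -0.21 and -0.36 (totals) in the CTL and LIP groups, so every change from day 0 to day 2 is relative to the bulk of genes.

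Itgb2 (ENSMUSG00000000290, chr10:77366086-77401542, plus strand), the β chain of LFA-1, held 311, 285 and 289 CPM in the CTL libraries and 312, 285 and 345 CPM in the LIP libraries of day 0, and 268, 292 and 271 CPM and 203, 233 and 262 CPM, respectively, on day 2. The CTL libraries of the 2 days overlapped, and the LIP libraries did not. Its log2 fold change was -0.09 in the CTL group (95% interval -0.32 to 0.14, adjusted p 0.45, edgeR), and it fell by 0.43 in the LIP group (SE 0.11, adjusted p 0.0026, edgeR). In the CTL group Itgb2 was called lower with upper-quartile factors (-0.38, adjusted p 0.0081) and with totals (-0.28, adjusted p 0.0327). The difference between the groups was -0.34 (95% interval -0.66 to -0.01, adjusted p 0.295, edgeR) and was not called.

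Itgae (ENSMUSG00000005947, chr11:72981409-73039917, plus strand) had the lowest level of the 10 genes in every group, also per length of exon. On day 0 it was counted at 13.5, 8.65 and 18.4 CPM in CTL 88, CTL 89 and CTL 94 and at 14.2, 20.4 and 19.999 CPM in LIP 92, LIP 93 and LIP 94. On day 2 it was counted at 10.8, 9.18 and 7.37 CPM in the CTL libraries and at 4.38, 6.26 and 5.05 CPM in the LIP libraries, from 39 to 102 counts each. The days overlapped in the CTL group and were well apart in the LIP group, and on day 2 all LIP libraries lay below all CTL libraries. Itgae fell by 1.79 in the LIP group (SE 0.27, 3.47-fold, adjusted p 3.9e-05, edgeR), and in the CTL group the log2 fold change was -0.57 (SE 0.26, adjusted p 0.0645, edgeR). The value of the CTL group was called lower in edgeR with upper-quartile factors (-0.85), with totals (-0.75), with either other filter on low counts (-0.53 and -0.63) and without CTL 89 (-0.81, adjusted p 0.0084). The difference of these changes was the largest among the 10 genes, at -1.23 (95% interval -2.02 to -0.44), and was not called (adjusted p 0.131, edgeR). It was called with no filter on low counts (adjusted p 0.0076) and not in the other alternatives, where the adjusted p ranged from 0.0613 to 0.3075. Haspin, a gene on the opposite strand inside the span of Itgae, had group means of 9.25 and 8.17 CPM on day 0 and of 26.5 and 22.7 CPM on day 2 (CTL and LIP). The library kit keeps the strand, but whether the counting used it is not given in the sources used here.

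Itga6 (ENSMUSG00000027111, chr2:71575960-71689757, plus strand), the α chain of the laminin receptors, was the only one of the 10 genes that lay lower in all LIP libraries than in all CTL libraries on both days. It was counted at 347, 361 and 343 CPM in the CTL libraries and at 328, 311 and 285 CPM in the LIP libraries of day 0, and at 202, 227 and 191 CPM and 173, 117 and 160.2 CPM, respectively, on day 2. The log2 fold change of LIP over CTL was -0.18 on day 0 (SE 0.07, adjusted p 0.302, edgeR) and -0.47 on day 2 (SE 0.16, adjusted p 0.213, edgeR), and neither was called. Over all genes, 19.1% on day 0 and 21.4% on day 2 had groups that did not overlap, in either direction. The share of genes lower in LIP on both days was not computed. With stimulation Itga6 fell by 0.76 in the CTL group (SE 0.13, adjusted p 0.00014, edgeR) and fell by 1.04 in the LIP group (SE 0.13, adjusted p 8.6e-06, edgeR).

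Selplg (ENSMUSG00000048163, chr5:113956597-113970705, minus strand) changed least among the genes that fell in both groups. It was counted at 267, 282 and 267 CPM in the CTL libraries and at 240.2, 229.8 and 274 CPM in the LIP libraries of day 0, and at 189, 226 and 181 CPM and 176, 190.3 and 214 CPM, respectively, on day 2. The days did not overlap within either group. Selplg fell by 0.45 in the CTL group (SE 0.11, adjusted p 0.0024, edgeR) and fell by 0.36 in the LIP group (SE 0.11, adjusted p 0.0098, edgeR). Without LIP 94 the log2 fold change in the LIP group was -0.28 and was not called (adjusted p 0.0596).

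**Figure D2:**
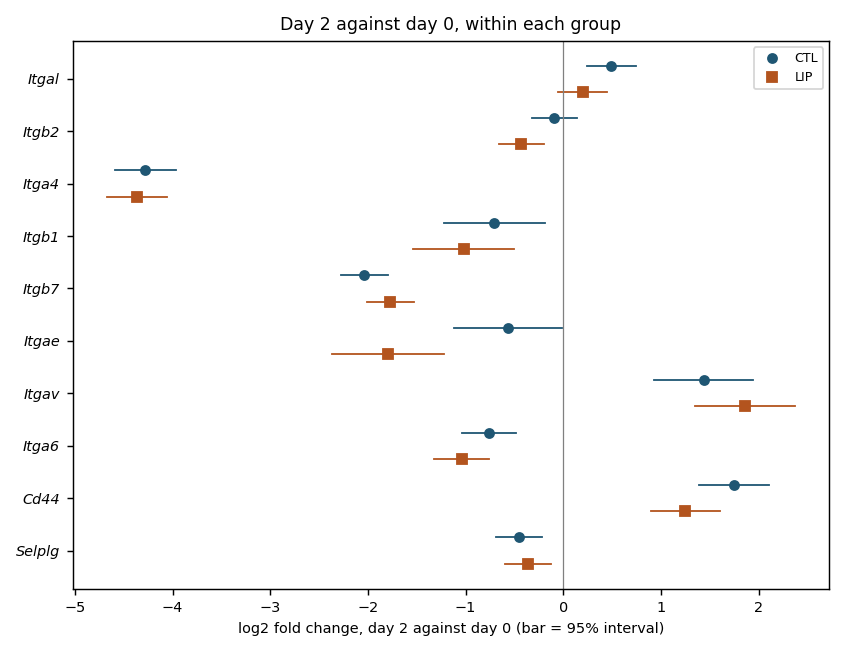
Log2 fold change of day 2 against day 0 (x axis) of the 10 genes in the CTL group (circles) and the LIP group (squares), with 95% intervals as bars. Itga4 lies farthest to the left and Cd44 and Itgav farthest to the right in both groups, Itgb7 lies next to Itga4 in the CTL group and beside Itgae in the LIP group, and the circle and square of Itgae lie farthest from each other.

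On day 0 none of the 10 genes was called between LIP and CTL. The log2 fold changes ran from -0.18 (Itga6) to 0.44 (Itgae), with a median of 0.08 beside 0.01 over all genes, and the groups were apart for 2 of the 10 genes (Itga4 and Itga6), near the 19.1% of all genes. The 95% intervals kept Itgal, Itgb2, Itgb7, Itgav, Cd44 and Selplg within -0.30 and 0.29, whereas those of Itgb1 (-0.23 to 0.66) and Itgae (-0.08 to 0.95) left room for larger differences. Itgb1, Itgav and Cd44 had log2 fold changes of 0.21, 0.02 and 0.04, which became -0.06, -0.07 and -0.08 without CTL 89. Itgae was 0.18 without CTL 89 and 0.74 without CTL 94 (adjusted p 0.73 and 0.0623, edgeR). The summed level of 6 regulatory T-cell genes was 345 to 478 CPM in the CTL libraries and 491 to 528 CPM in the LIP libraries of day 0, and its part in these values was not tested.

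On day 2 the intervals were wider and 1 library decided which genes were called. With all 3 LIP libraries, the groups were apart for Itgb2 (-0.26), Itgae (-0.81, adjusted p 0.171, edgeR) and Itga6 (-0.47), all lower in LIP, beside 21.4% of all genes apart, and the median of the 10 genes was -0.16 beside -0.01 over all genes. Without LIP 90, 3 of the 10 genes were called lower in LIP, beside 6.19% of all genes, namely Itgb1 (-0.39, SE 0.10, adjusted p 0.033), Itga6 (-0.56, SE 0.15, adjusted p 0.0388) and Cd44 (-0.65, SE 0.14, adjusted p 0.0159, edgeR). Over all genes 13.9% were then called (2014 of 14453). Without LIP 96 instead, Itgb1 turned to 0.036 (adjusted p 0.976). Without LIP 90, Itgb7 was 0.42 higher (adjusted p 0.0519) and Itgav 0.68 higher (adjusted p 0.0732) and neither passed. The difference of the changes without LIP 90 was called for Cd44 alone (-0.70, SE 0.19, adjusted p 0.0291, edgeR), beside 10.1% of all genes called (4.45% lower). LIP 90 and CTL 92 share the label anti-CD28, while LIP 96 and LIP 97 carry the others. Within the 3 pairs of libraries that share such a label, LIP was lower than CTL in all 3 for Itgb2, Itgae, Itga6 and Cd44 and higher in all 3 for Itgb7, and 35.7% of all genes had the same sign in all 3. With the label as a block in the fit, 0 of the 10 genes and 0 of all 14041 were called in edgeR, 3 of the 10 and 1839 of all having an unadjusted p under 0.05. The summed B-cell markers were 22.2 CPM in LIP 90, 70.6 and 70.4 CPM in LIP 96 and LIP 97, and 22.2, 24.4 and 63.6 CPM in CTL 92, CTL 93 and CTL 97, and the summed NK-cell genes were 2.68, 49.5 and 12.2 CPM in the LIP libraries and 3.48, 0.954 and 13.04 CPM in the CTL libraries. The 6 regulatory T-cell genes summed to 1786 to 2446 CPM in the CTL libraries and 2127 to 2326 CPM in the LIP libraries of day 2. Most of that sum was Il2ra, with 1297 to 1847 CPM in the CTL libraries and 1582 to 1832 CPM in the LIP libraries. Foxp3 and Ikzf2 of the list were lower in each LIP library than in each CTL library. Foxp3 lay at 27.9 to 31.8 CPM in LIP against 35.9 to 42.2 CPM in CTL. Ikzf2 lay at 77.3 to 93.5 CPM in LIP against 106 to 126 CPM in CTL. Il2ra, Ikzf4, Tnfrsf18 and Ctla4 overlapped between the groups. The mean was higher in LIP for Il2ra, Ikzf4 and Tnfrsf18, and for Ctla4 it was 157.8 against 160.5 CPM. The part of B cells, NK cells and regulatory T cells in the values of day 2, that of Itgae included, was not tested.

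**Figure D3:**
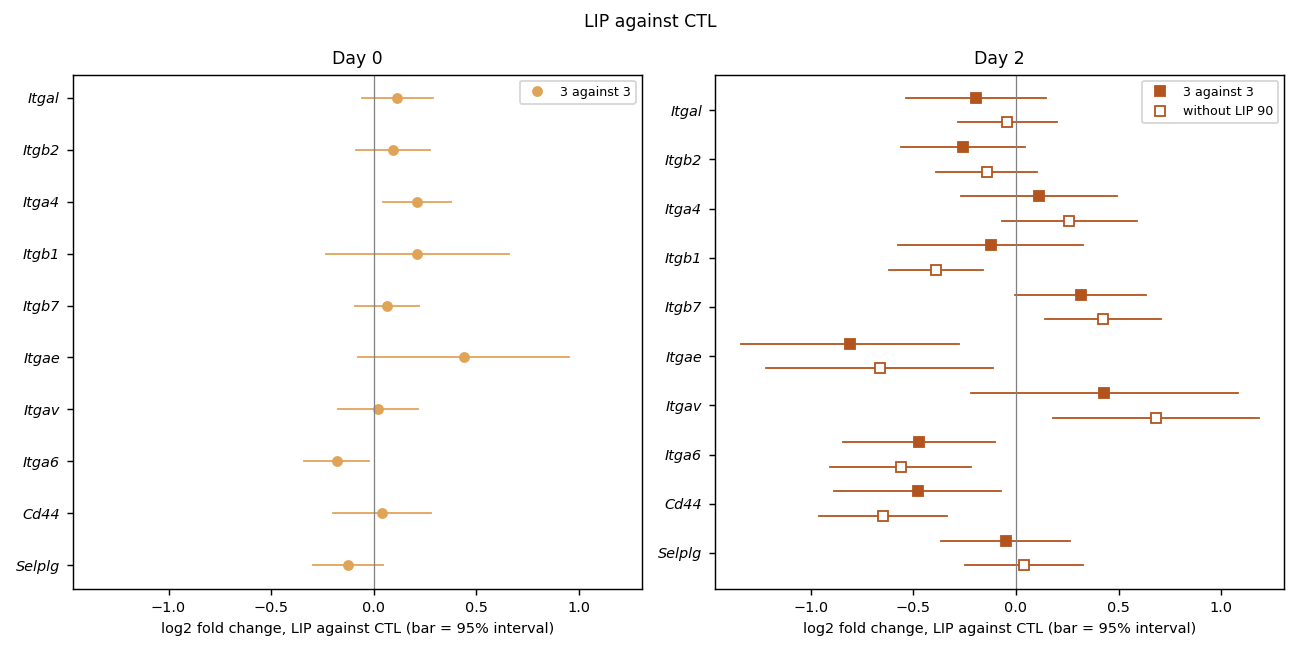
Log2 fold change of LIP against CTL (x axis) for the 10 genes, with the unstimulated cells on the left and the stimulated cells on the right, with 95% intervals as bars. Filled symbols use 3 libraries a group, and open squares leave out LIP 90. On day 0 the interval of Itga4 lies wholly above 0 and that of Itga6 wholly below. The intervals of Itgae, Itga6 and Cd44 on day 2 lie wholly below 0 either way, that of Itgb1 does so without LIP 90, and those of Itgb7 and Itgav then lie wholly above 0. The intervals are not adjusted over all genes, and no gene was called with 3 libraries a group.

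Per length of exon, the order of the genes changed with stimulation. In CPM per kilobase of all exons of a gene, Itgb7 stood first on day 0 with 149 ± 5.28 (SD, n = 3) in CTL mice and 156 ± 7.51 in LIP mice, followed by Itgb2 with 91.0 ± 4.37 and 96.7 ± 9.22. Selplg (63.6 ± 1.97 and 58.0 ± 5.42), Itgal (58.0 ± 3.76 and 62.6 ± 4.39), Itga4 (53.1 ± 1.84 and 61.2 ± 3.22) and Itgb1 (49.6 ± 17.3 and 57.3 ± 5.47) came next, and in the LIP group these 4 neighbours did not differ beyond their spread. Itga6 (30.8 and 27.1), Cd44 (18.9 and 19.3), Itgav (6.75 and 6.81) and Itgae (2.17 and 2.92) closed the order. On day 2 the chains of LFA-1 led, Itgb2 with 85.4 ± 3.94 and 71.8 ± 9.15 and Itgal with 81.6 ± 3.54 and 71.9 ± 11.6, and lay within each other's spread. Cd44 had moved from the eighth place to the third (63.4 ± 8.46 and 45.9 ± 10.4), level in the LIP group with Itgb7 (45.7 ± 4.75) and Selplg (45.2 ± 4.495). Itga4 had moved to the ninth place, with 2.73 ± 0.39 and 2.98 ± 0.49. Lengths rest on all annotated exons, of which Itga4 has 16732 bases and Itgb7 2902, and the length of the longest transcript instead left 4 to 6 of the 10 genes at the same place. By that length Itgb7 also stood first on day 0 and Itgal first on day 2, but Cd44 took the fourth place on day 2 in both groups, and in the LIP group Selplg (83.5) stood before Itgb2 (74.6).

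**Figure D4:**
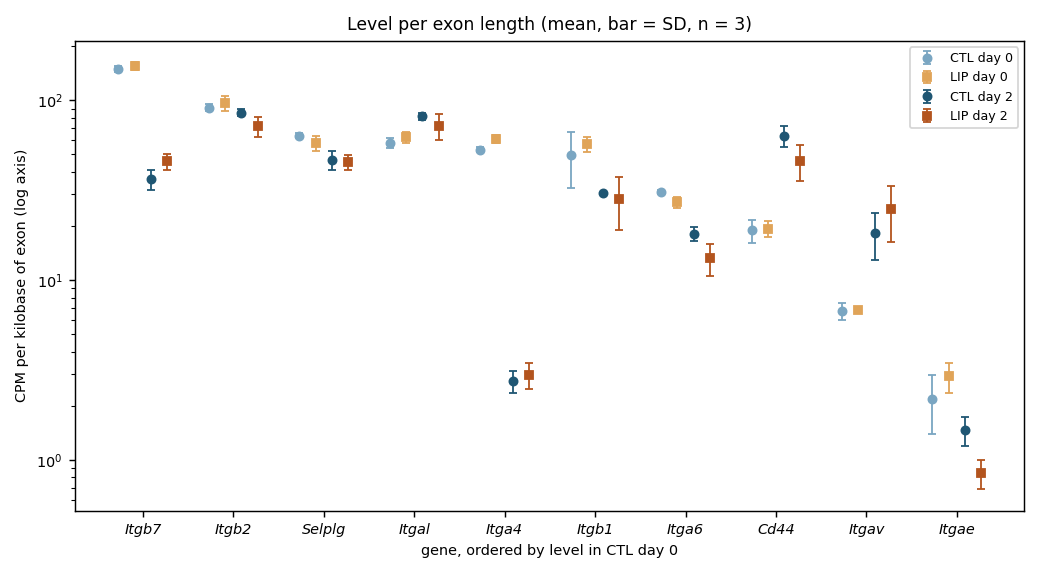
Level in CPM per kilobase of exon (log y axis, mean with SD as bar, n = 3) of the 10 genes in the 4 groups, ordered by the level in CTL day 0. Itgb7 stands first on day 0, Itga4 drops below all but Itgae on day 2, and Cd44 rises from the eighth place to the third (the fourth by the length of the longest transcript).

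The ratio of α to β chain RNA, per length, was lower for α4 on day 2. The log2 ratio of Itga4 to Itgb7 was -1.49 ± 0.03 and -1.35 ± 0.07 (SD, n = 3) in CTL and LIP on day 0, and -3.74 ± 0.21 and -3.95 ± 0.15 on day 2. For Itga4 to Itgb1 it was 0.17 ± 0.53 and 0.10 ± 0.06 on day 0, and -3.49 ± 0.21 and -3.21 ± 0.68 on day 2. The days did not overlap in either ratio, so that α4 RNA lay lower on day 2 in relation to both partners. For Itga4 to Itgb7 the LIP libraries of day 0 (-1.42 to -1.27) lay above all CTL libraries (-1.51 to -1.46). Itgal was higher in relation to Itgb2 on day 2, with a log2 ratio of -0.65 ± 0.02 and -0.63 ± 0.04 on day 0 and -0.06 ± 0.01 and -0.0044 ± 0.08 on day 2. By the length of the longest transcript that ratio turned from -0.38 and -0.35 to 0.21 and 0.27, so the change between the days is the same by either length, and which chain is higher on day 2 depends on the length used. The ratio of Itgae to Itgb7 was -6.17 ± 0.52 and -5.76 ± 0.30 on day 0. On day 2 it was -4.65 ± 0.27 in CTL mice and -5.77 ± 0.20 in LIP mice, where the LIP libraries lay below all CTL libraries. Of Itgav to Itgb1 the ratio was -2.81 ± 0.43 and -3.07 ± 0.08 on day 0 and -0.78 ± 0.44 and -0.20 ± 0.94 on day 2, with LIP 90 at the lower end of its group.

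**Figure D5:**
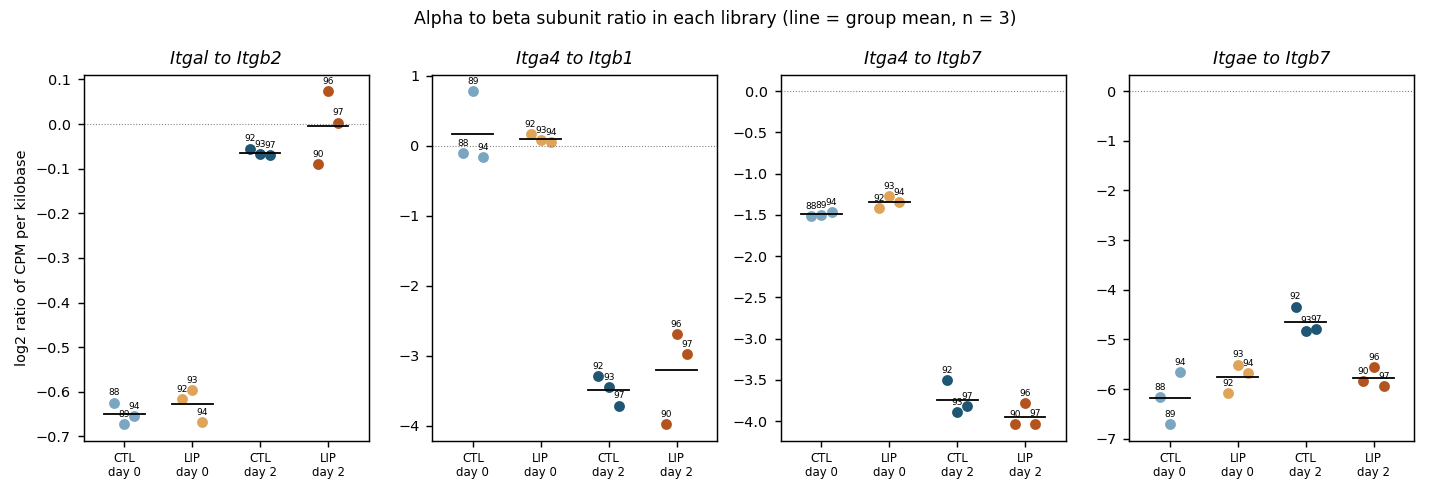
Log2 ratio of α to β chain RNA (CPM per kilobase, y axes) in each library, labelled by number, for 4 receptor pairs. Lines mark group means (n = 3), and the dotted line is equal level. Both α4 ratios fall on day 2, and Itgal to Itgb2 is higher on day 2 in every library. Itgae to Itgb7 separates LIP from CTL on day 2, and Itga4 to Itgb7 does so on day 0.

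The other integrin chains were mostly low. Of 19 further integrin genes, 11 passed the filter on low counts, of which 4 rose and 4 fell in the CTL group and 3 rose and 3 fell in the LIP group. Their median log2 fold changes were 0.17 and 0.04, beside -0.02 and -0.0028 over all genes. In the same comparisons 69% (CTL) and 71.8% (LIP) of all genes were called. Itga3, an α chain that binds laminin with β1, rose 4.81-fold and 3.24-fold (CTL and LIP), and Itga5 of the fibronectin receptor 4.65-fold and 3.32-fold. Itga9 rose 5.31-fold in the CTL group and was 2.20-fold higher in the LIP group, which did not pass (adjusted p 0.117, edgeR). Its LIP values of day 2 were 4.20 CPM in LIP 90, 0.467 CPM in LIP 96 and 1.94 CPM in LIP 97, against 0.421 to 1.33 CPM on day 0. The collagen-binding α1 chain (Itga1) had 64 to 153 counts in the libraries of day 0 and 0, 0 and 2 in the CTL and 2, 7 and 4 in the LIP libraries of day 2. Itga2, another collagen-binding chain, fell 3.30-fold and 3.56-fold. Itgam of the myeloid receptor Mac-1 had 10 to 39 counts on day 0 and 0 to 3 on day 2, and Itga2b of platelets fell 4.15-fold in the CTL group from at most 3.01 CPM and was 1.34-fold lower in the LIP group, which did not pass (adjusted p 0.32, edgeR).

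Among 29 other adhesion receptors and ligands that passed the filter (of 31), 12 rose and 9 fell in the CTL group and 12 rose and 8 fell in the LIP group. The share of all genes called was 69% and 71.8%, as above. Alcam, the ligand of CD6, rose 19.9-fold and 10.1-fold (CTL and LIP), from 3.604 to 10.3 CPM on day 0 to 35.0 to 146 CPM on day 2. Cd24a rose 10.3-fold and 10.2-fold, the tetraspanin Cd81 7.31-fold and 4.503-fold, and Jaml, a junctional adhesion molecule, 4.28-fold and 7.45-fold. The nectin receptors Cd96 and Cd226 fell in both groups, Cd96 4.10-fold and 4.47-fold and Cd226 4.08-fold and 4.54-fold. Vcam1, the ligand of VLA-4, was called lower but had at most 16 counts in a library. The median log2 fold changes of the list were 0.12 and 0.06, beside the same medians over all genes.

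Genes that switch integrins on and link them to actin moved in both directions. Of 34 that passed the filter (of 36), 10 rose and 16 fell in the CTL group and 14 rose and 15 fell in the LIP group, with medians of -0.24 and -0.15. Beside these counts, 69% and 71.8% of all genes were called. Rasgrp2 (CalDAG-GEFI), an activator of Rap1, fell 41.9-fold and 33.1-fold, from 218 to 282 CPM on day 0 to 5.19 to 9.81 CPM on day 2. Apbb1ip (RIAM), which ties Rap1 to talin, fell 6.09-fold and 7.12-fold. The actin crosslinker Flna fell 3.35-fold and 2.88-fold and Rasgrp1 3.26-fold and 3.21-fold. Vcl, the talin-binding vinculin, rose 2.73-fold and 2.18-fold, Rdx (radixin) 1.72-fold and 2.17-fold, and Tln2 5.80-fold and 6.68-fold from at most 5 counts a library.

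Of the 14 enzymes that build selectin ligands on proteins such as PSGL-1, all passed the filter, and 7 rose and 5 fell in the CTL group and 7 rose and 4 fell in the LIP group, with medians of 0.39 and 0.09. Over all genes, 69% and 71.8% were called. The sulfotransferase Tpst1, of the tyrosines that P-selectin reads, rose 8.26-fold and 5.29-fold and its relative Tpst2 fell 1.75-fold and 1.78-fold. Chst2 rose 4.53-fold and 3.44-fold, and the sialyltransferases St3gal1 (1.82-fold and 1.84-fold) and St3gal6 (1.76-fold and 2.36-fold) fell. The fucosyltransferase gene Fut4 had 0 to 2 counts in the libraries of day 0 and 16 to 44 on day 2, and was called higher in both groups.

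Between LIP and CTL, 0 genes of these 4 lists were called on either day or in the difference of the changes. Without LIP 90, on day 2, 3 of 9 other integrin chains, 8 of 28 adhesion receptors and 7 of 34 activation and linkage genes were called, and 0 of 14 enzymes, beside the 13.9% of all genes. The medians of the lists were -0.49, -0.15, 0.13 and -0.27, beside -0.0031 over all genes. The integrin chains called were all lower in LIP, namely Itga7, Itga9 and Itgb3 (fold changes of 1.92, 4.77 and 1.71). Itga7 stood at 31.2 CPM in LIP 90, 6.45 and 6.60 CPM in LIP 96 and LIP 97 and 10.2 to 14.8 CPM in the CTL libraries, and with LIP 90 it turned to a log2 fold change of 0.22 (adjusted p 0.877, edgeR). Among the adhesion receptors called, Cd47 (1.58-fold) and Jaml (2.73-fold) were higher and Cd81, Alcam, Bsg, Crtam and Mcam were lower (1.91-fold to 4.75-fold). Parvg, Cytip, Skap1, Vasp and Lims1 of the linkage genes were higher (1.34-fold to 1.85-fold) and Fermt3 (kindlin-3) and Ptk2b were lower (1.32-fold and 1.40-fold). LIP 90 itself lay on the opposite side of the CTL libraries for Lims1 (159 CPM against 167 to 205), Bsg (299 against 208 to 218) and Crtam (11.0 against 7.48 to 10.8). It lay within their range for Parvg, Cytip, Skap1, Vasp and Alcam. For Cd47, Jaml, Cd81, Mcam, Fermt3 and Ptk2b it lay outside, on the side of the call. In the difference of the changes without LIP 90, 2 of 11 integrin chains, 10 of 30 adhesion receptors, 4 of 34 activation and linkage genes and 0 of 14 enzymes were called, beside the 10.1% of all genes.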

How the data were processed

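Total RNA of splenic CD4+ T cells was sequenced as directional, rRNA-depleted libraries. The authors' processing notes name FastQC 0.11.9, Trimmomatic 0.38, Bowtie2 and RSEM 1.3.0 on GRCm39, while the methods also name HISAT2, and the deposited table holds expected counts per gene, not normalized. The authors' tables for each day also hold normalized levels, fold changes and p-values of their own comparison. Only the gene symbols of those tables were used, and 2 columns of one of them belong to no labelled sample.

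Expected counts were rounded to whole numbers and tested in edgeR 4.0.16 (R 4.3.3) with filterByExpr, TMM factors and the quasi-likelihood test. LIP was set against CTL in the 6 libraries of a day, and day 2 against day 0 and the difference of these changes in 12 libraries. Genes with a Benjamini-Hochberg adjusted p under 0.05 over all genes tested were called. The SE is the log2 fold change divided by the square root of F. Levels per length divide CPM by the summed exons of a gene in GENCODE M39. Alternatives were other normalizations, other filters on low counts, DESeq2 1.42.0, other samples in the fit, leaving out each library and, added after seeing the data, the antibody label of day 2 as a block. The function was tested on simulated data.

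The genes, lists and tests were chosen with earlier results of these data known. From each list, up to 3 called genes with the highest and 3 with the lowest log2 fold change in a comparison were named, and genes called without LIP 90 were named after their values were seen. Itgb3, the overlapping genes and the platelet genes were also named after seeing them.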

Additional observations from a re-analysis of the deposited data

How the results depend on the processing

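Alternatives left 719 of 750 values of single genes at the same direction and side of the threshold. On day 0, genes called between LIP and CTL numbered 60, and 645 with no filter on low counts, 206 with DESeq2, 12 with all 12 libraries in one fit and 13 to 658 when each library was left out (658 without CTL 94, 13 without LIP 93). On day 2 they numbered 0, and 662 with no filter, 489 with DESeq2, 775 with 12 libraries in one fit, 1 with library totals or at least 10 counts in every library, and 0 to 2014 when each library was left out. Of the 10 genes, 0 to 3 were then called, the latter without LIP 90. For the difference of the changes, 8 genes were called, and 97 with totals, 815 with no filter (Itgae being the 1 member called), 531 with DESeq2, 2 without the libraries labelled anti-CD29 and 1 to 1596 when each library was left out (0 to 1 of the 10 genes). The cause was not tested.

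Some values turned in sign. When each library was left out, LIP over CTL on day 0 ranged from -0.058 to 0.38 for Itgb1, -0.070 to 0.089 for Itgav and -0.085 to 0.11 for Cd44, and on day 2 from -0.39 to 0.036 for Itgb1 and -0.13 to 0.055 for Selplg. The difference of the changes of Itga4 ranged from -0.20 to 0.041. Without the libraries labelled anti-CD29, Itgb1 was 0.033 and Selplg 0.068 on day 2. Itgal in the LIP group was -0.11 (upper quartile) and -0.16 (totals), and the difference for Selplg was -0.080 (totals). With upper-quartile factors, calls from day 0 to day 2 split into 4259 higher and 6827 lower (CTL) and 4293 and 7084 (LIP), and with totals into 4621 and 6272 and 4138 and 7285, against 5456 and 5220 and 5665 and 5446.

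With the length of the longest transcript, 6, 6, 6 and 4 of the 10 genes kept their place in the order (CTL and LIP of day 0, then of day 2). The mean log2 ratio over the 12 libraries was then -0.061 (Itgal to Itgb2), -1.07 (Itga4 to Itgb1), -1.94 (Itga4 to Itgb7), -0.38 (Itga6 to Itgb1) and -1.19 (Itgav to Itgb1), against -0.34, -1.61, -2.63, -0.88 and -1.72. By replicate number, no paired analysis was possible because the groups compared share fewer than 2. The antibody labels pair the day 2 libraries, and a fit with that label as a block, added after seeing the data, called 0 genes, as without it. Deviations from the group means in these pairs had correlations over genes of -0.11 to -0.044, so the values do not show that the libraries vary in pairs. Depth limits Itgae most, with 39 to 150 counts a library.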

Other observations

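The genes whose log2 CPM followed each member most closely over the 12 libraries were mostly genes that differ between the days, which the libraries share as their main contrast. Prex1, which encodes an exchange factor for Rac, followed Itga4 with a Pearson correlation of 0.997, and the non-coding genes Gm11346 and 1300002E11Rik did so with 0.997 each. Ldlrad4, Fez2 and Lrrc75b followed Itgb7 (0.994 to 0.996), and Ell2, Pdcd1, which encodes the inhibitory receptor PD-1, and Cobll1 followed Cd44 (0.989 to 0.990). Gm47662, Sdcbp2 and Serpinb6b were closest to Itgav (0.986 to 0.990), and Ssbp2, Gm49199 and Fam53b to Itga6 (0.983 to 0.984). Gm10537, Art2a and Nkg7, a granule gene of cytotoxic lymphocytes, were closest to Itgae (0.958 to 0.986).

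The remaining genes had looser companions. Tmem65, Anxa1 and 4931428F04Rik were closest to Itgb1 (0.934 to 0.948), Art2b, Tmem184a and Trappc9 to Itgb2 (0.908 to 0.936), Gm18821, Dnm2 and Sipa1, which encodes a Rap1 GTPase-activating protein, to Selplg (0.954 to 0.964), and Lrrc32, 1700051K13Rik and Nsmf to Itgal (0.935 to 0.941). Among the 10 genes, Itga4 and Itgb7 had a correlation of 0.991 and Itga4 and Cd44 of -0.95, whereas Itgal and Itgb2, the partners of LFA-1, had -0.09. These correlations over 12 libraries describe the same pair of days and carry no test.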
